A study of Mus musculus with 6 samples.

Results

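The genes described here are 68 of the 19938 genes that the arrays measured: the ligands and receptors by which growing axons, migrating cells and sprouting vessels read direction. They were taken by gene symbol and comprise the semaphorins of classes 3 to 7, the plexins, the neuropilins, the ephrins and their Eph receptors, the Slit ligands and Robo receptors, the netrins, and the Unc5 receptors with Dcc. Each gene stands for 1 probe set that carries its symbol alone, the brightest where there were several, and the 68 genes fall into 13 families with 35 ligands and 33 receptors. Of the 69 protein-coding genes with such symbols, Ephb2 was not analysed here. RNA came from embryoid bodies (EBs), floating aggregates in which mouse embryonic stem (ES) cells leave the pluripotent state, made from the established line R1 in ES medium lacking the factor Lif. Retinoic acid (RA), a vitamin A derivative that binds nuclear receptors and is much used to steer ES cells, was given at 2 μM to EBs that were 4 days old. The day of its addition, before RA, is day 0, and the other groups had 3 days (day 3) and 4 days (day 4) in RA, with 2 arrays per day and 6 in all. The study took genes below detection on arrays as sources of its spike-in transcripts for sequencing, whereas the question here is how the guidance genes differ between the days. The labels carry 1 cell line and do not say whether the 2 samples of a day came from separate cultures. The p-values then reflect only how far the samples of a day differ, a difference that may be technical. EBs of equal age without RA were not analysed here, and the effect of RA cannot be told apart from that of a longer culture.

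Guidance ligands act on cells that carry a matching receptor and turn their leading edge away or draw it on. Class 3 semaphorins are secreted and bind neuropilins, which pass the signal on through plexins, while most other semaphorins sit in the membrane and bind plexins directly. Ephrins are membrane ligands of the Eph receptor tyrosine kinases, with the A type held by a lipid anchor and the B type spanning the membrane. Slits are secreted repellents read by Robo receptors, and netrins attract through Dcc and repel through Unc5. The same families pattern the hindbrain, guide neural crest and shape blood vessels and the heart in the embryo.

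All values are RMA intensities on a log2 scale, where 1 unit is a 2-fold difference, and levels of different genes cannot be ranked because probes differ. The 2 arrays of each day correlated at 0.999 over all genes, and no array stood apart. A gene was counted as changed where limma gave it an adjusted p of at most 0.05 over all 19938 genes. Changes are given as log2 change ± SE. The 3 comparisons share arrays, so they are not independent of each other. In aggregates of several cell types, fewer expressing cells and less RNA per cell cannot be told apart. With the definition of undetectable in the study's methods, a mean below 6 and an SD below 0.3, here taken over the 6 arrays, 5 guidance genes were undetectable (7.35%, against 30.2% of all genes). These were Plxnb3, Epha5, Epha6, Robo3 and Dcc.

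Guidance genes were changed in both directions on both later days. At day 4 versus day 0, 31 of the 68 were higher (45.6%, against 25.9% of all genes) and 18 were lower (26.5%, against 25.6% of all genes). At day 3 versus day 0, 33 were higher (48.5%, against 23.8%) and 18 were lower (26.5%, against 28.1%). Changes of at least 2-fold with arrays that did not overlap were counted too. There were 15 such guidance genes higher at day 4 than at day 0 (22.1%, against 5.82% of all genes) and 5 lower (7.35%, against 4.61%). At day 3 there were 16 higher (23.5%, against 5.14%) and 4 lower (5.88%, against 4.09%). The share of guidance genes that was higher than at day 0 lay above that of all genes, and the share that was lower lay near it. All genes include 30.2% that were undetectable, against 7.35% of the guidance genes. Shares among detectable genes alone were not compared. The median log2 change of the 68 genes was 0.12 at day 4 versus day 0 and 0.21 at day 3 versus day 0, where all genes had 0.00 and −0.05. Another scaling moves the balance: centring each array on its median over all probe sets gave 35 guidance genes higher and 17 lower at day 4 versus day 0 (all genes 7132 and 3915, against 5154 and 5106 here), and centring over the genes tested gave 28 and 21 (all genes 3781 and 8521).

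**Figure D1:**
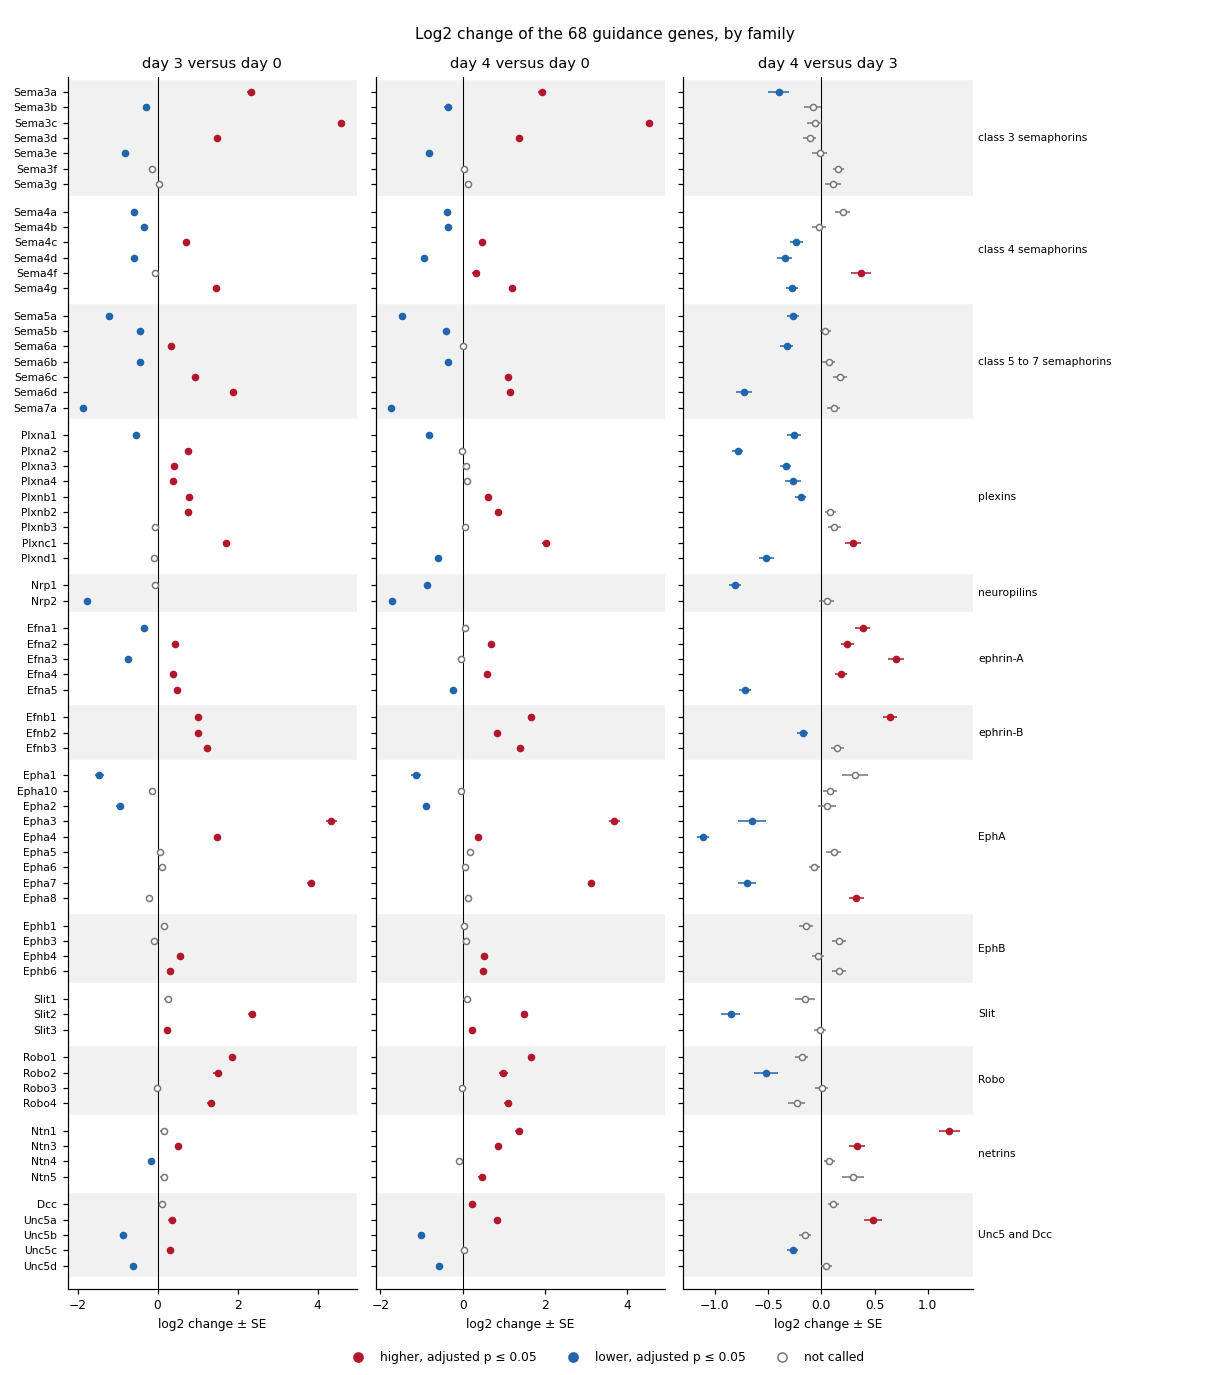
Log2 change ± SE (horizontal axis, 1 panel per comparison, with a narrower scale for day 4 versus day 3) of each of the 68 guidance genes (rows, grouped by family). Filled red points are higher and filled blue points lower at an adjusted p of 0.05 or below, and open points were not called. Sema3c, Epha3 and Epha7 lie farthest to the right in both comparisons with day 0.

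Ligands and receptors were both changed in either direction. Of the 35 ligands, 18 were higher and 10 lower at day 4 than at day 0. Of the 33 receptors, 13 were higher and 8 lower, where 25.9% of all genes were higher and 25.6% lower. At day 3 versus day 0, 17 ligands were higher and 12 lower, and 16 receptors were higher and 6 lower. Over all genes, 23.8% were higher and 28.1% lower at day 3. No test set the ligands against the receptors. Guidance genes called in none of the 3 comparisons numbered 10, among them Sema3f, Ephb3 and Slit1. The share of all genes called in none was not counted.

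To show the regulatory sequence next to the largest differences, the 250 bases before the annotated start site are given for the 3 genes with a log2 change above 3 on both later days and for the 2 genes with the largest falls. Capitals mark GC boxes, the letters GGGCGG on either strand, a motif bound by factors of the Sp family. The windows are from the RefSeq table of mouse assembly GRCm38.p6 and read 5′ to 3′ on the strand of the gene.
Sema3c (chr5:17574566-17574815, plus strand): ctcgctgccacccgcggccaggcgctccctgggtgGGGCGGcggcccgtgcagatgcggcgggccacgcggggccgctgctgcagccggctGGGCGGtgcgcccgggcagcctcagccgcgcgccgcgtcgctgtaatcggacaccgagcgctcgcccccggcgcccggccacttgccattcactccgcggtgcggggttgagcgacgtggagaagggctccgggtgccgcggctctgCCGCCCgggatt
Epha3 (chr16:63864176-63864425, minus strand): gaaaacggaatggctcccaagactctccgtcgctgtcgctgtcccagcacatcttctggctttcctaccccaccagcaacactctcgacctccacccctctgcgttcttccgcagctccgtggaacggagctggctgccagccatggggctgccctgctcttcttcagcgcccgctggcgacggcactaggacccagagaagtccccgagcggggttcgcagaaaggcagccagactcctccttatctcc
Epha7 (chr4:28812881-28813130, plus strand): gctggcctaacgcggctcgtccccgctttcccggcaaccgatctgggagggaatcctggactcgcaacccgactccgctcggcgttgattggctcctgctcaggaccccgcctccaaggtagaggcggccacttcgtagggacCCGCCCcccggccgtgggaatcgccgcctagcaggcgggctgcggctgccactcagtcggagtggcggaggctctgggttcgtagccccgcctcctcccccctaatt
Sema7a (chr9:57939862-57940111, plus strand): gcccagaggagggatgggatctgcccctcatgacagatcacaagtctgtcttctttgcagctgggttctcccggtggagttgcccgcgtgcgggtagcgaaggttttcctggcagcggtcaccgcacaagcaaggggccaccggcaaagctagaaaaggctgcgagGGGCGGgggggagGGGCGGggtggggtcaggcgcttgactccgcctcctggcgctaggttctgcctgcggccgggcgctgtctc
Nrp2 (chr1:62703067-62703316, plus strand): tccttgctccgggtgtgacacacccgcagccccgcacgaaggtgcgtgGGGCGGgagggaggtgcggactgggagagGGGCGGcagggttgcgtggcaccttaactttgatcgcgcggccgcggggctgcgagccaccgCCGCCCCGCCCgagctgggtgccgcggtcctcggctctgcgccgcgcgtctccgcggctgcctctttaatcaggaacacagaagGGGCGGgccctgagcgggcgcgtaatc
The window of Sema3c holds 3 GC boxes, that of Epha7 holds 1, that of Sema7a holds 2 and that of Nrp2 holds 5, while Epha3 has 0. The nuclear receptor half-site AGGTCA, searched on both strands, is in 0 of these 5 windows. A GC box and a half-site cannot overlap each other, but GC boxes can, and 2 of the 5 in the window of Nrp2 share 1 letter.

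Promoter windows were at hand for 58 of the 68 guidance genes and for 15563 of the genes tested. GC boxes were found in 43 of the 58 windows (74.1%, against 46.1% of the tested genes with a window), and the median GC content was 64.6% against 56.4%. AGGTCA was found in 9 of the 58 (15.5%, against 12.1%). By call at day 4 versus day 0, the half-site was in 2 of 28 windows of higher genes, 6 of 15 of lower genes and 1 of 15 of genes not called. GC boxes were in 18 of 28, 13 of 15 and 12 of 15 of the same windows. Shares by call were not counted over all tested genes, so the counts by call have no background beside them and no link is read from them. All of these are descriptions of letters, and no binding was measured.

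Class 3 semaphorins went both ways, with 3 of 7 higher, 2 lower and 2 not called in both comparisons with day 0. Of all genes, 25.9% were higher and 25.6% lower at day 4, and 23.8% higher and 28.1% lower at day 3. Sema3c, a secreted ligand of both neuropilins needed for septation of the cardiac outflow tract, read 5.65 and 5.55 on day 0, 10.10 and 10.27 on day 3, and 10.16 and 10.09 on day 4. All 4 arrays from RA-treated EBs lay more than 4 units above both arrays of day 0. Since both day 0 arrays lay below 6, the fold is given as a bound, with 6 in place of the day 0 mean. Sema3c was at least 17.4-fold higher at day 4 than at day 0 (fitted change 4.52 ± 0.07, adjusted p = 4.95e-08) and at least 18.2-fold higher at day 3 (fitted change 4.58 ± 0.07, adjusted p = 4.33e-08). Its day 4 and day 3 arrays overlapped (−0.06 ± 0.07, not called).

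Sema3a, a secreted repellent that collapses sensory growth cones, read 7.99 and 7.78 on day 0, 10.18 and 10.27 on day 3, and 9.94 and 9.70 on day 4. It was 3.83-fold higher at day 4 than at day 0 (1.94 ± 0.10, adjusted p = 3.66e-06) and 5.05-fold higher at day 3 (2.34 ± 0.10, adjusted p = 1.75e-06). Sema3d, its neighbour on chromosome 5 with 0 protein-coding genes between them, read 6.09 and 6.02 on day 0, 7.59 and 7.48 on day 3, and 7.41 and 7.44 on day 4. Both later days lay above day 0 without overlap, by 1.37 ± 0.06 at day 4 and 1.48 ± 0.06 at day 3. Sema3e, which binds Plxnd1 without a neuropilin and lies 3 protein-coding genes beyond Sema3a, changed the other way, by −0.82 ± 0.07 at day 4 and −0.80 ± 0.07 at day 3 versus day 0. Sema3b fell by 0.36 at day 4 versus day 0 (adjusted p = 0.00776). At day 3 versus day 0 it fell by 0.28 (adjusted p = 0.0248), and that call did not hold without day 0 replicate 1 (adjusted p = 0.0958), without day 0 replicate 2 (0.0741) and without day 3 replicate 1 (0.142). Sema3b was one of the spike-in sources of the study, and here its arrays lay between 6.66 and 7.13. By sequencing samples without the added transcripts, the study found the native level of its spike-in sources undetectable, with a few exceptions. Array intensity of a gene and sequenced level of a transcript are unlike measures. Sema3f and Sema3g, both known as ligands of Nrp2, differed from day 0 by 0.02 and 0.13 at day 4 and were not called.

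Both neuropilins, the receptors for these ligands, were lower at day 4. Nrp2 read 11.15 and 11.03 on day 0, 9.29 and 9.35 on day 3, and 9.43 and 9.31 on day 4. All 4 arrays of day 3 and day 4 lay below both of day 0, with a change of −1.72 ± 0.07 at day 4 versus day 0 (adjusted p = 1.19e-06) and −1.77 ± 0.07 at day 3 (adjusted p = 1.20e-06). Nrp1, a receptor for Sema3a that also binds vascular endothelial growth factor, read 10.99 and 10.95 on day 0, 10.91 and 10.89 on day 3, and 10.14 and 10.04 on day 4. Day 3 differed from day 0 by −0.07 ± 0.06 and was not called, whereas day 4 lay below both earlier days, by −0.88 ± 0.06 against day 0 and −0.81 ± 0.06 against day 3. The 2 neuropilins were thus lower at day 4 than at day 0. Of the 7 class 3 semaphorins, 3 were higher, 2 lower and 2 not called, where 25.9% of all genes were higher and 25.6% lower. No test set ligands against neuropilins.

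**Figure D2:**
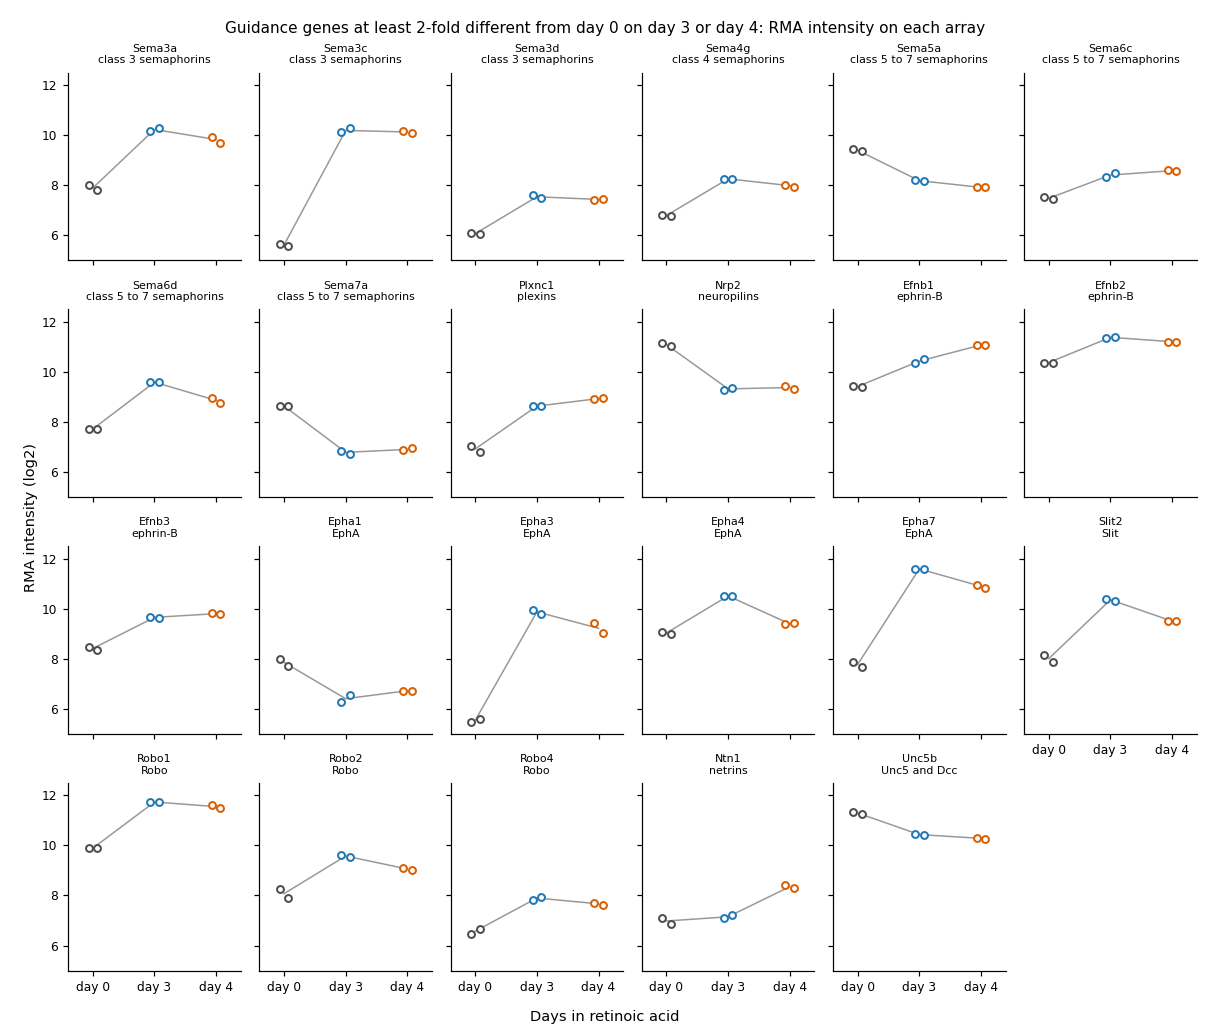
RMA intensity (log2, vertical axis, the same in all panels) of the 23 guidance genes that differed at least 2-fold from day 0 on day 3 or day 4 with arrays not overlapping. Circles are the 2 arrays of each day in RA (horizontal axis), and grey lines join the means. Sema3c, Epha3 and Epha7 lie well above their day 0 arrays on both later days, and Ntn1 does so on day 4 only.

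The 9 plexins, the signalling receptors of all semaphorin classes, did not move as a block. Plxnc1, the receptor of Sema7a, read 7.02 and 6.81 on day 0, 8.62 and 8.64 on day 3, and 8.92 and 8.94 on day 4. It was 4.04-fold higher at day 4 than at day 0 (2.01 ± 0.08, adjusted p = 9.22e-07) and 3.28-fold higher at day 3 (1.71 ± 0.08). No other plexin reached a 2-fold difference. Among type B plexins, receptors of class 4 semaphorins, Plxnb2 (0.85 ± 0.05) and Plxnb1 (0.60 ± 0.05) were higher at day 4 than at day 0, and Plxnb3 was undetectable. Of the 4 type A plexins, partners of the neuropilins, 3 were higher and 1 lower at day 3 versus day 0, and 0 were higher and 1 lower at day 4. For all genes the shares higher and lower were 23.8% and 28.1% at day 3, and 25.9% and 25.6% at day 4. The gene that was lower on both days was Plxna1, at −0.81 ± 0.07 on day 4 and −0.55 ± 0.07 on day 3. Plxna2 read 8.96 and 8.98 on day 0, 9.70 and 9.76 on day 3, and 8.92 and 8.97 on day 4. Its rise at day 3 (0.77 ± 0.05, adjusted p = 1.87e-05) was gone at day 4, where the arrays overlapped those of day 0. Plxnd1, the receptor of Sema3e, was lower at day 4 (−0.60 ± 0.07) and not called at day 3 (−0.08 ± 0.07), both against day 0.

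Class 4 semaphorins, membrane ligands of type B plexins, divided evenly, with 3 of 6 higher and 3 lower at day 4 versus day 0. The shares of all genes were 25.9% higher and 25.6% lower. Sema4g read 6.81 and 6.75 on day 0, 8.24 and 8.26 on day 3, and 8.01 and 7.94 on day 4. It was 2.29-fold higher at day 4 (1.19 ± 0.06, adjusted p = 2.35e-06) and 2.77-fold higher at day 3 (1.47 ± 0.06). Sema4c, a ligand of Plxnb2, also rose, by 0.47 ± 0.06 at day 4. Sema4d, a ligand of Plxnb1 also active in the immune system, fell by 0.93 at day 4 versus day 0 (SE 0.07, adjusted p = 1.95e-05), but its second, dimmer probe set stayed between 6.11 and 6.31 on all arrays, and the mean of its probe sets fell by 0.48. Sema4f was called higher at day 4 (0.32 ± 0.10, adjusted p = 0.0262), a call lost without day 0 replicate 2 (adjusted p = 0.134) and without day 4 replicate 2 (0.117).

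Of the 7 semaphorins of classes 5 to 7, 4 were lower and 2 higher at day 4 versus day 0. The shares of all genes were 25.6% lower and 25.9% higher. Sema7a, a lipid-anchored semaphorin that binds Plxnc1 and integrins, read 8.64 and 8.63 on day 0, 6.83 and 6.73 on day 3, and 6.86 and 6.94 on day 4. This was the largest fall among the 68 genes on both days, 3.33-fold at day 4 (−1.74 ± 0.06, adjusted p = 6.76e-07) and 3.61-fold at day 3 (−1.85 ± 0.06, adjusted p = 5.85e-07). The ligand Sema7a and its receptor Plxnc1 therefore changed in opposite directions against the same day 0 arrays.

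Sema5a, a transmembrane semaphorin with thrombospondin repeats, read 9.44 and 9.35 on day 0, 8.20 and 8.15 on day 3, and 7.91 and 7.90 on day 4. It was 2.80-fold lower at day 4 (−1.48 ± 0.06, adjusted p = 9.47e-07) and 2.32-fold lower at day 3 (−1.21 ± 0.06). Sema5b, of the same class, changed by −0.41 ± 0.05 at day 4. Sema6d, a ligand of Plxna1 with roles in heart development, read 7.71 and 7.72 on day 0, 9.60 and 9.58 on day 3, and 8.96 and 8.76 on day 4. Day 3 was thus the highest of the 3 days for Sema6d, 3.67-fold above day 0 (1.87 ± 0.07), and day 4 was 2.21-fold above day 0 (1.15 ± 0.07). Sema6c read 7.50 and 7.44 on day 0, 8.33 and 8.47 on day 3, and 8.60 and 8.55 on day 4, and was 2.15-fold higher at day 4 (1.10 ± 0.07). Sema6a, a ligand of Plxna2 and Plxna4, was higher at day 3 (0.33 ± 0.06) and was not called at day 4 versus day 0 (0.01 ± 0.06), where the arrays overlapped.

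All 3 ephrin-B ligands were higher on both later days, the only family of at least 3 genes in which every gene was called in 1 direction in both comparisons with day 0. Of all genes, 25.9% were higher at day 4 and 23.8% at day 3. Efnb1, linked to craniofacial development, read 9.44 and 9.38 on day 0, 10.35 and 10.50 on day 3, and 11.08 and 11.07 on day 4. It was higher on each day than on the one before, and stood 3.16-fold above day 0 at day 4 (1.66 ± 0.07, adjusted p = 1.14e-06). Efnb3, known as a midline barrier for axons of the spinal cord, read 8.46 and 8.35 on day 0, 9.67 and 9.63 on day 3, and 9.83 and 9.77 on day 4. Its level was 2.63-fold above day 0 at day 4 (1.39 ± 0.06) and 2.37-fold at day 3 (1.25 ± 0.06). Efnb2, a marker of arterial endothelium, read 10.37 and 10.37 on day 0, 11.36 and 11.40 on day 3, and 11.20 and 11.21 on day 4, a difference of 0.83 ± 0.05 at day 4 and 1.01 ± 0.05 at day 3 versus day 0.

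Their EphB receptors moved less. Ephb4, the venous partner of Efnb2, was higher by 0.53 ± 0.06 at day 4 and 0.56 ± 0.06 at day 3 versus day 0, and Ephb6, which lacks kinase activity, by 0.48 ± 0.07 and 0.32 ± 0.07. Ephb1 (0.02) and Ephb3 (0.08) were not called at day 4 or at day 3.

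The A side of the system had its large changes among the receptors. Epha3, a receptor of A-type ephrins, read 5.46 and 5.61 on day 0, 9.94 and 9.80 on day 3, and 9.42 and 9.01 on day 4. Both day 0 arrays lay below the value of 6 used for undetectable genes. With 6 in place of the day 0 mean, its level was at least 9.29-fold higher at day 4 than at day 0 (fitted change 3.68 ± 0.13, adjusted p = 7.29e-07) and at least 14.6-fold higher at day 3 (fitted change 4.34 ± 0.13, adjusted p = 4.26e-07). Epha7, a receptor of the same type with roles in the neural tube and cortex, read 7.88 and 7.66 on day 0, 11.60 and 11.58 on day 3, and 10.96 and 10.83 on day 4. It was 8.73-fold higher at day 4 (3.13 ± 0.08, adjusted p = 2.02e-07) and 14.1-fold higher at day 3 (3.82 ± 0.08, adjusted p = 1.10e-07). Sema3c, Epha3 and Epha7 were the only guidance genes with a log2 change above 3 against day 0, also with 6 in place of the day 0 means of Sema3c and Epha3.

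Epha4, which binds ephrins of both types and marks segments of the hindbrain, read 9.08 and 8.97 on day 0, 10.51 and 10.51 on day 3, and 9.38 and 9.41 on day 4. The day 3 level stood 2.80-fold above day 0 (1.48 ± 0.06, adjusted p = 1.26e-06) and the day 4 level 1.29-fold (0.37 ± 0.06, adjusted p = 0.00124). Epha1, best known in epithelia, read 8.01 and 7.70 on day 0, 6.26 and 6.54 on day 3, and 6.72 and 6.71 on day 4. It was 2.19-fold lower at day 4 (−1.13 ± 0.12, adjusted p = 0.000159) and 2.74-fold lower at day 3 (−1.45 ± 0.12). Epha2, another receptor found in epithelia, was lower by a log2 change of −0.89 ± 0.09 at day 4 and −0.94 ± 0.09 at day 3. Epha5 and Epha6 were undetectable, and Epha10, a receptor without kinase activity, was not called on either day.

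No ephrin-A ligand differed 2-fold from day 0. Efna2 (0.69 ± 0.06) and Efna4 (0.58 ± 0.05) were higher at day 4. Efna5 was called lower at day 4 (−0.24 ± 0.06, adjusted p = 0.00984) and higher at day 3 (0.48 ± 0.06, adjusted p = 0.000305), both versus day 0. Its day 4 call was lost without day 0 replicate 1 (adjusted p = 0.059), without day 4 replicate 1 (0.0563) and with each array centred on its median (0.106). Efna3 read 9.99 and 10.10 on day 0, 9.37 and 9.25 on day 3, and 10.09 and 9.94 on day 4. Efna1 followed the same course at 9.40 and 9.53 on day 0, 9.08 and 9.17 on day 3, and 9.56 and 9.47 on day 4. Both were lower at day 3 than at day 0, by −0.74 ± 0.08 and −0.34 ± 0.07, and neither was called at day 4 versus day 0. Efna1, Efna3 and Efna4 lie side by side on chromosome 3 with 0 protein-coding genes between them, and at day 3 Efna4 was higher (0.39 ± 0.05) while the other two were lower.

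**Figure D3:**
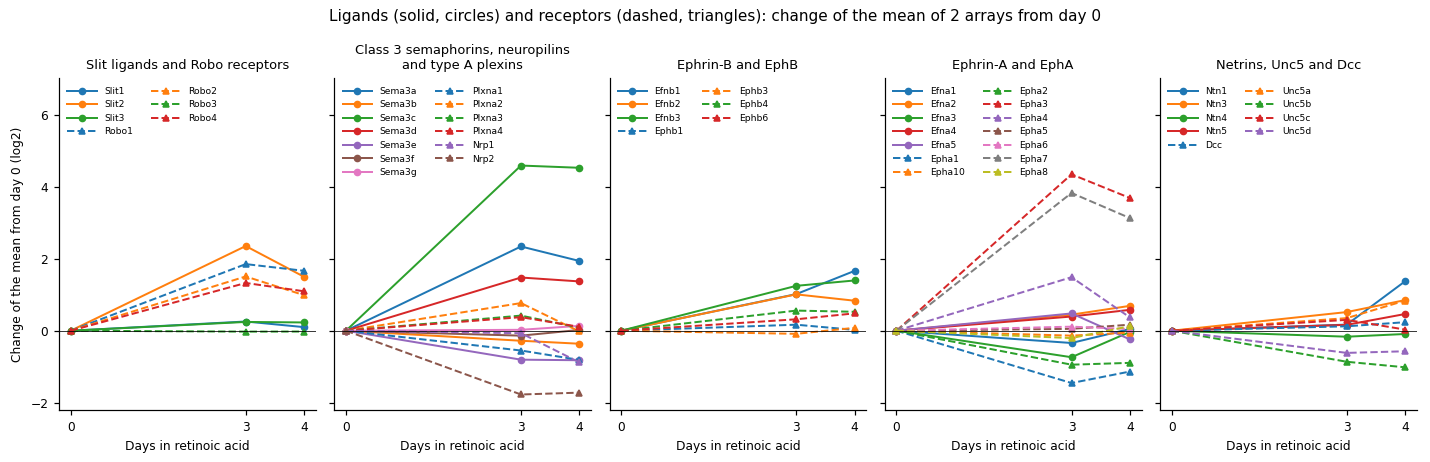
Change of each day's mean of 2 arrays from the day 0 mean (log2, vertical axis) against days in RA (horizontal axis), for ligands (solid lines, circles) and receptors (dashed lines, triangles) of 5 guidance systems. Slit2, Robo1, Robo2 and Robo4 lie highest at day 3, all 3 ephrin-B ligands lie above 0 on both days, and Ntn1 lies near 0 at day 3 and above it at day 4.

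In the Slit and Robo system, 1 of 3 ligands and 3 of 4 receptors were at least 2-fold higher at day 3 than at day 0 without overlap. The share of all genes was 5.14%. Slit2, a repellent of commissural axons, read 8.14 and 7.87 on day 0, 10.39 and 10.32 on day 3, and 9.49 and 9.51 on day 4. It was 5.10-fold higher at day 3 than at day 0 (2.35 ± 0.09, adjusted p = 1.00e-06) and 2.82-fold higher at day 4 (1.50 ± 0.09, adjusted p = 6.87e-06). Slit3 was higher by 0.23 ± 0.06 at day 4 versus day 0 (adjusted p = 0.0103), a call lost without day 0 replicate 2 (adjusted p = 0.0553), without day 4 replicate 1 (0.0597) and with centring over the genes tested (0.195). Slit1 was not called on either day.

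Robo1, a main receptor of the Slits, read 9.89 and 9.89 on day 0, 11.75 and 11.73 on day 3, and 11.62 and 11.49 on day 4. It was 3.17-fold higher at day 4 (1.66 ± 0.06, adjusted p = 7.36e-07) and 3.60-fold higher at day 3 (1.85 ± 0.06, adjusted p = 5.37e-07). Robo2, which lies next to Robo1 on chromosome 16 with 0 protein-coding genes between them, read 8.25 and 7.89 on day 0, 9.62 and 9.54 on day 3, and 9.10 and 9.02 on day 4. It was higher by 0.99 ± 0.11 at day 4 and 1.51 ± 0.11 at day 3, without overlap of arrays. Robo4, a receptor of endothelial cells, read 6.48 and 6.67 on day 0, 7.84 and 7.96 on day 3, and 7.70 and 7.63 on day 4. It was 2.13-fold higher at day 4 (1.09 ± 0.08, adjusted p = 2.06e-05) and 2.51-fold higher at day 3 (1.33 ± 0.08). Robo3, which lets axons cross the midline and is the direct neighbour of Robo4 on chromosome 9, lay between 5.79 and 5.92 on every array and was undetectable.

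Among the netrins, the change of Ntn1 came late. Ntn1, the floor plate attractant of commissural axons, read 7.10 and 6.86 on day 0, 7.09 and 7.21 on day 3, and 8.42 and 8.28 on day 4. The arrays of day 0 and day 3 overlapped (0.17 ± 0.10, not called), and both arrays of day 4 lay more than 1 unit above all the others. Ntn1 was 2.59-fold higher at day 4 than at day 0 (1.37 ± 0.10, adjusted p = 1.62e-05). Ntn3 rose on both days, by 0.85 ± 0.07 at day 4 and 0.52 ± 0.07 at day 3 versus day 0. Ntn5 was called at day 4 (0.46 ± 0.10, adjusted p = 0.00699), and the call was lost without day 4 replicate 2 (adjusted p = 0.0504). Ntn4, a netrin of basement membranes, was called lower at day 3 (−0.17 ± 0.05, adjusted p = 0.0342). That call was lost without any 1 of the 6 arrays, with adjusted p between 0.0503 and 0.167, and Ntn4 was not called at day 4.

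The netrin receptors went both ways. Unc5b, a repulsive receptor also found on vessels, read 11.35 and 11.25 on day 0, 10.45 and 10.42 on day 3, and 10.30 and 10.27 on day 4. It was 2.02-fold lower at day 4 (adjusted p = 5.59e-06) and 1.82-fold lower at day 3 (−0.86 ± 0.06). Unc5d was lower by a log2 change of −0.57 ± 0.05 at day 4. Its second probe set read 5.20 and 5.16 on the day 4 arrays, against 5.68 and 5.78 on the day 0 arrays. That set lay below 6 on every array, so its difference is one between dim signals. Unc5a read 6.38 and 6.17 on day 0, 6.57 and 6.68 on day 3, and 7.08 and 7.14 on day 4. It stood higher on each day than on the one before, by 0.84 ± 0.08 at day 4 versus day 0 and 0.35 ± 0.08 at day 3 versus day 0, where the call was lost without day 3 replicate 2 (adjusted p = 0.0599). Unc5c was higher at day 3 (0.30 ± 0.05) and not called at day 4 (0.03 ± 0.05). Dcc, the receptor for attraction, was called higher at day 4 (0.24 ± 0.05, adjusted p = 0.00671) although its mean over the 6 arrays was below 6. With 6 in place of its day 0 mean of 5.78, the rise was at least 1.01-fold. Centring over the genes tested ended that call (adjusted p = 0.155).

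At day 4 versus day 3 guidance genes were more often lower than higher in the values as deposited, and more often higher than lower once each array was centred on its median. In the deposited values 11 of the 68 were higher (16.2%, against 15.8% of all genes) and 22 were lower (32.4%, against 12.2% of all genes). Only Ntn1 was at least 2-fold higher without overlap (1.47% of the guidance genes, against 0.376% of all genes), and only Epha4 was at least 2-fold lower (1.47%, against 0.391%). The median log2 change was −0.01, against 0.05 over all genes. This balance depends on the scaling: centring each array on its median over all probe sets gave 30 guidance genes higher and 13 lower (all genes 8829 and 1381, against 3156 and 2437 here), and centring over the genes tested gave 8 and 25 (all genes 2268 and 3081). The counts higher and lower were 5 and 11 without day 3 replicate 1, 7 and 15 without day 3 replicate 2, 7 and 18 without day 4 replicate 1, and 7 and 12 without day 4 replicate 2.

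The 5 largest rises at day 4 versus day 3 were Ntn1 (1.20 ± 0.10, adjusted p = 0.000482), Efna3 (0.70 ± 0.08), Efnb1 (0.65 ± 0.07), Unc5a (0.49 ± 0.08) and Efna1 (0.39 ± 0.07). The call of Efna1 was lost without day 3 replicate 1 (adjusted p = 0.0502), and the other 4 kept theirs under every alternative tried. The 5 largest falls were Epha4 (−1.12 ± 0.06, adjusted p = 0.000141), Slit2 (−0.85 ± 0.09), Nrp1 (−0.81 ± 0.06), Plxna2 (−0.79 ± 0.05) and Sema6d (−0.73 ± 0.07), and all 5 kept their calls under every alternative. Efna5 (−0.72 ± 0.06), Epha7 (−0.70 ± 0.08) and Epha3 (−0.66 ± 0.13) followed, the last with a call lost without day 3 replicate 1 (adjusted p = 0.0697). Of these 8 genes, Nrp1 had not differed from day 0 by a called amount at day 3, and the other 7 had been higher at day 3 than at day 0. All 4 type A plexins were lower at day 4 than at day 3. Among ephrin-A ligands, by contrast, 4 were higher and 1 was lower, where 15.8% of all genes were higher and 12.2% lower. The calls of Plxna1, Plxna4, Efna2 and Efna4 in this comparison were each lost when single arrays of day 3 or day 4 were left out (3 or 4 of the 4 arrays, adjusted p between 0.0797 and 0.183).

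Other ligands and co-receptors of the same pathways were followed as a list, of which 26 genes were measured and 1 was not. At day 4 versus day 0, 11 were higher, 6 were lower and 9 were not called, and the median log2 change was 0.07. Over all genes, 25.9% were higher and 25.6% lower, with a median of 0.00. By fitted change, the 5 genes that rose most were Lrrc4c, a postsynaptic partner of netrin-G1 (3.48 ± 0.11), Flrt2, a membrane ligand of Unc5 receptors (2.64 ± 0.12), Neo1, a relative of Dcc (1.81 ± 0.06), Rgma, a ligand of Neo1 (1.54 ± 0.09), and Met, the receptor of hepatocyte growth factor (1.49 ± 0.09). The day 0 mean of Lrrc4c was 4.34, below 6, so its rise is only a bound of at least 3.52-fold, and its place in that order is not settled. The 5 that fell most were Dscam, a further netrin receptor (−2.03 ± 0.12), L1cam, a co-receptor of Nrp1 for Sema3a (−2.01 ± 0.11), Kdr, the receptor of vascular endothelial growth factor that pairs with Nrp1 (−1.04 ± 0.06), Cxcr4 (−0.96 ± 0.07) and Nrcam (−0.54 ± 0.10). The day 4 means of Dscam, L1cam and Nrcam lay below 6, which makes them at least 3.15-fold, 3.68-fold and 1.42-fold lower and leaves their order open to the same limit. Neo1 and Rgma thus rose, while the mean of Dcc over the 6 arrays stayed below 6.

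Intracellular effectors of the receptors were a list of which 43 genes were measured and 2 were not. At day 4 versus day 0, 19 were higher, 14 lower and 10 not called, with a median log2 change of 0.11. The same values over all genes were 25.9% higher, 25.6% lower and a median of 0.00. Srgap3, a GTPase-activating protein of the Slit and Robo pathway (1.61 ± 0.06), Rnd1, a GTPase that binds plexins (1.58 ± 0.08), Pdzrn3 (1.57 ± 0.09), Dpysl3 (1.09 ± 0.08) and the kinase Fyn (1.04 ± 0.07) rose most. Vav2 (−1.23 ± 0.08) and Vav3 (−1.13 ± 0.08), exchange factors used by Eph receptors, Crmp1, a mediator of Sema3a (−1.18 ± 0.08), Ablim1 (−1.03 ± 0.06) and Abl2 (−0.84 ± 0.07) fell most. The GTPases Rac1 and Rhoa, on which these pathways converge, changed by −0.04 and 0.02 and were not called.

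Markers of the cell types that EBs can hold were followed as lists, and their part in these results was not tested. Some lists changed in level and others stayed near day 0. Over all genes, 25.9% were higher and 25.6% lower at day 4 versus day 0. The mean level of 10 pluripotency markers was 9.17 and 9.12 on the day 0 arrays, 6.84 and 6.80 at day 3, and 6.80 and 6.68 at day 4, with 9 of 10 lower at day 4 than at day 0, Pou5f1, Nanog and Sox2 among them. Epithelial markers lay at 10.18 and 10.13 on day 0, 8.93 and 9.06 on day 3, and 9.03 and 9.16 on day 4, and 7 of 8 were lower at day 4. Mesenchyme markers lay at 7.84 and 7.66, 9.01 and 8.96, and 9.32 and 9.28 on the same days, with 7 of 10 higher and 3 lower. Among their defining genes Col1a2 (1.89) and Col3a1 (2.28) rose and Col1a1 fell at day 4 versus day 0. Endothelial markers lay at 9.10 and 9.04 on day 0, 9.36 and 9.50 on day 3, and 9.09 and 9.10 on day 4, with 7 of 12 higher and 5 lower. Of their defining genes Pecam1 and Cdh5 rose and Tek fell at day 4 versus day 0. Neuron markers lay at 7.72 and 7.65 at day 4, against 7.49 and 7.46 at day 0, with 4 of 12 higher and 5 lower. Of the defining genes Rbfox3 rose (1.63) while Tubb3 (−0.38) and Elavl3 (−0.24) fell. At least 2-fold without overlap, 3 were higher (5.82% of all genes) and 1 was lower (4.61%). These were Rbfox3, Dcx (1.99) and Syt1 (1.69), and Gap43 (−1.12) as the lower one. Neural progenitor markers lay at 7.53 and 7.58 at day 4, against 7.5 and 7.55 at day 0, with 2 of 9 higher and 1 lower. Pax6 was called higher, and Sox1 and Nes were not called. The day 0 mean of Pax6 was 5.93, so its rise is a bound of at least 1.22-fold. Neural crest markers lay at 7.261 and 7.204 on day 0, 7.609 and 7.543 on day 3, and 7.619 and 7.612 on day 4. At day 4 versus day 0, 3 of 8 were higher and 2 lower. Among their defining genes Foxd3 rose (0.22), Tfap2a fell (−1.22) and Sox10 was not called. Those at least 2-fold higher without overlap were 2, Ednrb (3.16) and Snai2 (1.16), and Tfap2a was the 1 at least 2-fold lower.

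**Figure D4:**
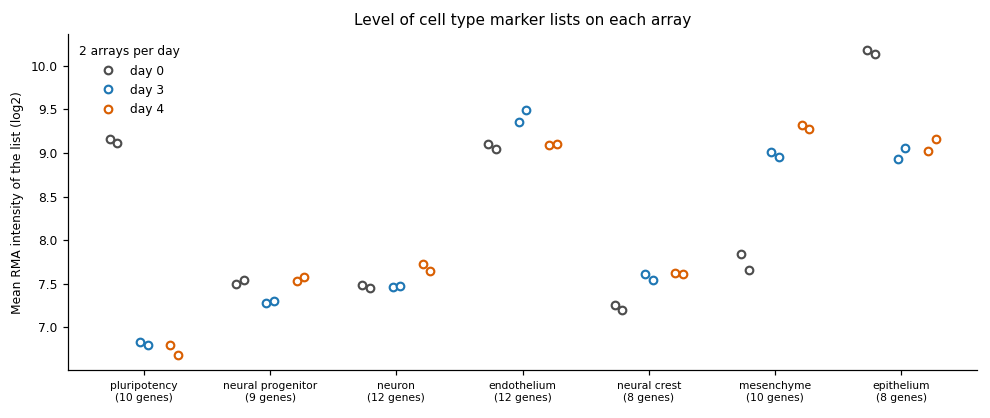
Mean RMA intensity (log2, vertical axis) of 7 lists of cell type markers (horizontal axis) on each array, with circles for the 2 arrays of day 0, day 3 and day 4. Pluripotency and epithelial markers are lower and mesenchyme markers higher on both later days than at day 0, and the neuron list differs by less than 0.3 between days.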

How the data were processed

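The authors deposited log2 intensities, made with Robust Multichip Average (RMA) in the Partek software, of 1 Affymetrix Mouse Gene 1.0 ST array for each sample. RMA subtracts background, forces the arrays to 1 intensity distribution and summarises each probe set, so a change of total RNA cannot be seen and differences between dim signals are compressed. No software version was given for the arrays. Of 35557 probe sets, 21789 carried 1 gene symbol and gave 19938 genes, with the brightest probe set used for the 999 genes that had several.

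Days were compared with limma 3.58.1 in R 4.3.3 (lmFit and eBayes, no trend, not robust, two-sided), fitting all 6 arrays together with a mean per day, which left 3 residual and 4.07 prior degrees of freedom. Benjamini-Hochberg adjustment of p-values covered the 19938 genes. The study states no test for its arrays. Precision is limited by there being only 2 arrays per day, since intensities have no read depth. The fit was tested on simulated data. Where the mean of 1 of the days compared lay below 6, folds are bounds with 6 in its place, a rule chosen after seeing the data.

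Values of every array are given for genes called against day 0 with a log2 change of at least 1 and arrays not overlapping, and for the 5 largest rises and falls at day 4 versus day 3. Other genes are given by count, with up to 4 called and 3 not called per family, and of the lists of other ligands and of effectors the 5 called genes with the largest change each way. Genes outside this rule, such as Rac1, Rhoa and the markers, were named after their values were seen. The genes, families and lists were chosen with earlier results of these data known. Alternatives were cyclic loess, centring, trend with robust moderation, a filter on dim genes, the mean of all probe sets, only the arrays compared, the replicate number as a block, each array left out, and an adjusted p of 0.01. Promoter windows and gene order come from the RefSeq table of GRCm38.p6, to which all 68 genes matched.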

Additional observations from a re-analysis of the deposited data

How the results depend on the processing

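There were 0 reversals among the changes of guidance genes that were called. At day 3 versus day 0, centring each array on its median gave 33 higher and 20 lower (all genes 4450 and 6024), against 33 and 18 here. Centring over the genes tested gave 33 and 24 (all genes 3889 and 8495), and cyclic loess gave 36 and 17 (all genes 5144 and 4936). Leaving out single arrays moved the counts against day 0 less than scaling did. Without single arrays they ranged between 29 and 32 higher and 17 and 18 lower at day 4 versus day 0, and between 33 and 34 higher and 16 and 18 lower at day 3 versus day 0. Of 49 calls at day 4 versus day 0, 44 were kept under every alternative, as were 48 of 51 at day 3 versus day 0 and 13 of 33 at day 4 versus day 3. At day 4 versus day 3 the counts were 11 higher and 22 lower. They became 30 and 13 with each array centred on its median, 5 and 12 at an adjusted p of 0.01, and between 5 and 11 higher and 11 and 22 lower without single arrays. Array centring moved the median log2 change of all genes to 0.11 at day 4 versus day 0, −0.07 at day 3 versus day 0 and 0.18 at day 4 versus day 3. Centring over the genes tested, chosen after seeing the data, moved it to −0.15, −0.15 and 0.00. Changes of guidance genes shift by as much under each, and the cause was not tested. The replicate numbers are not stated to pair the samples. With the replicate number as a block there were 31 higher and 18 lower at day 4 versus day 0, 33 and 18 at day 3 versus day 0, and 10 and 20 at day 4 versus day 3. The differences between replicates correlated at 0.034 to 0.083 between days. Signal over background limits dim genes such as Dcc, whose differences RMA compresses.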

Other observations

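Second probe sets were measured for 5 guidance genes. The second set of Sema6b differed from its main set by no more than 0.0001 on all 6 arrays, and that of Epha10 lay between 6.31 and 6.70. The second set of Ephb1 lay between 4.95 and 5.30 on the 6 arrays, whereas the main set lay between 6.72 and 6.98.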
